A study of Mus musculus with 8 samples.

Results

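The genes described here are 10 named members of the AP-1 and immediate-early class: Fos, Fosb, Fosl1 and Fosl2 of the FOS family, Jun, Junb and Jund of the JUN family, and Egr1, Atf3 and Ier2. They were taken by gene symbol, and all 10 were found among the 46078 gene IDs counted. Positions are those of GENCODE M21 on GRCm38. The cells were female mouse embryonic fibroblasts (MEFs) from a cross of a 129 strain, labelled 129S1/SvImJ, with CAST/EiJ. The study's text names a 129Sv4/Jae parent, and RNA-seq reads had been sorted by differences between 129S1/SvImJ and CAST/EiJ into 129 and CAST reads. The 129 share of all reads without mitochondrial ones was 71.1% to 71.5% in a pool. There were 8 samples in 4 groups of 2: WT cells, XiΔXist cells with Xist deleted on the inactive X chromosome, and XiΔXist cells transduced with lentivirus carrying a scrambled hairpin (shSCR) or a hairpin against YY1 (shYY1). WT and XiΔXist cells are clonal lines, so that an effect of the deletion and a difference between lines cannot be told apart. All cells grew in medium with 10% fetal bovine serum, and every group but WT carries the deletion. The transduced cells went through puromycin selection and a short recovery before RNA was taken. The study's text names different YY1 hairpins, so the shYY1 pool may join cells made with different ones.

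Replicates had been joined by the authors ahead of alignment, so each group is 1 pool of libraries and the spread between replicates cannot be seen. All intervals given are for counting error alone, and a test of reads compares pools, not conditions. Levels are reads of both alleles per 1000000 allelic reads of the pool (CPM). Only reads over a strain difference are counted, so a level depends on how many such positions a gene has and was compared between pools, not between genes. In bulk RNA, fewer expressing cells and less RNA per cell cannot be told apart.

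AP-1 is a dimer of a FOS protein with a JUN protein, or of JUN proteins with each other, that binds DNA through a leucine zipper and its basic region. Many of these genes are switched on within minutes of serum, growth factor or stress signals, without new protein synthesis, because serum response factor, ternary complex factors and CREB already sit at their promoters. Their transcripts are short-lived. For this reason they are commonly read as a trace of signalling at the moment of harvest, and in fibroblasts the addition of serum is the classical stimulus.

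The promoters of 4 members are printed because this class is defined by short response elements close to the start, and because the same stretches show how rich in G and C these genes are, a property that returns below. Each sequence is the 250 bases before the RefSeq start (GRCm38.p6), read 5′ to 3′ on the strand of the gene. Capitals mark matches on either strand to TGACG, the core of the cAMP response element that CREB binds, to TGACNTCA, the longer AP-1 and CREB type site, or to TGANTCA, the AP-1 site. A TGACNTCA with G in the open place would also hold TGACG.
Fos, chr12:85473640-85473889, plus strand: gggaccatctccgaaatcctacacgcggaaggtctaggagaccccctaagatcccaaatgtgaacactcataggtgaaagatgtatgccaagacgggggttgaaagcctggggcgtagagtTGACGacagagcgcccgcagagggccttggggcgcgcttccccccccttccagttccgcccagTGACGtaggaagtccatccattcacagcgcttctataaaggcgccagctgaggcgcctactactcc
Fosb, chr7:19310046-19310295, minus strand: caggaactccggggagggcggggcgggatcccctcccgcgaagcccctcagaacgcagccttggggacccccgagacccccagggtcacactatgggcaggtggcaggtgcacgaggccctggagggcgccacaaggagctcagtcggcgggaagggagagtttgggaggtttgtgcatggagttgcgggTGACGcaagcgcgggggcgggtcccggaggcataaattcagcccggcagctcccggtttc
Jun, chr4:95052223-95052472, minus strand: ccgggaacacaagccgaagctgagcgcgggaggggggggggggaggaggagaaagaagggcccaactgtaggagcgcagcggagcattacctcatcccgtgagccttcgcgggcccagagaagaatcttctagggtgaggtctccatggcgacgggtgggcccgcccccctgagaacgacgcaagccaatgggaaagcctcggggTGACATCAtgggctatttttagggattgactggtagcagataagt
Junb, chr8:84978749-84978998, minus strand: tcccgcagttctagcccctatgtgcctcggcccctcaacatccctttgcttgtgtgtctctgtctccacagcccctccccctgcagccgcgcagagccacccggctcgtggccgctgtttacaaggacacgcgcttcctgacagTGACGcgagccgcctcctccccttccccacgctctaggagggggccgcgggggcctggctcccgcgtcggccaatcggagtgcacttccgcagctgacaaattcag

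Fos held TGACG at -129 to -125 and again at -66 to -62, and a TATAAA box at -33 to -28, counted from the start. Fosb held TGACG at -60 to -56, Junb at -106 to -102, and Jun held TGACATCA at -45 to -38. Of all 32851 promoter windows of this length, 17.8% held TGACG, 7.49% held TGACNTCA, 6.75% held TGANTCA and 12.4% held TATAAA. The CArG box, to which serum response factor binds, was in 1.47% of windows and in none of the 4 printed, which says only that it is not in these 250 bases. The windows were 58.4% GC for Fos, 68.8% for Fosb, 61.2% for Jun and 66.4% for Junb, against a median of 52.4% over all windows. RefSeq windows were matched for 7 of the 10 members. Those of Fosl2, Jund and Atf3 are not printed because they lie 671, 1210 and 34706 bases from the GENCODE gene start. Of these, Atf3 held TGACG and Fosl2 and Jund held none of the motifs, so that 5 of the 7 windows held TGACG or TGACNTCA. The share of all windows with either motif was not counted, nor was that of windows of like GC content.

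The 4 pools held 24310035 (WT), 28329701 (XiΔXist), 2393545 (shSCR) and 2504345 (shYY1) allelic reads, so that a single read was worth 0.0411, 0.0353, 0.418 and 0.399 CPM. Mitochondrial reads made up 20.2% and 22.2% of the untreated pools and 36.7% and 39.5% of the hairpin pools. Xist, the deleted gene, was at 1456 CPM in WT and 0.741 in XiΔXist, then 0 in shSCR and 2.40 in shYY1. Yy1 was at 99.0 CPM in shSCR and 36.7 in shYY1. Of 16 fibroblast markers, 13 to 15 had at least 10 reads in a pool, with a summed level of 4019 to 10659 CPM. Of 20 markers of epithelial, endothelial, blood, muscle, neural and pluripotent cells, 10 to 12 were at 0, and the summed level of 33.4 to 97.9 CPM came mostly from the neural gene Map2.

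The 10 members together held 1773 reads in WT and 2276 in XiΔXist, beside 1757 in shSCR and 1598 in shYY1, which was 0.00729%, 0.00803%, 0.0734% and 0.0638% of all reads. Their share was thus low in both untreated pools and higher in both hairpin pools. The plot of levels by pool shows the same split in most single genes, and each is taken in turn below by family.

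**Figure D1:**
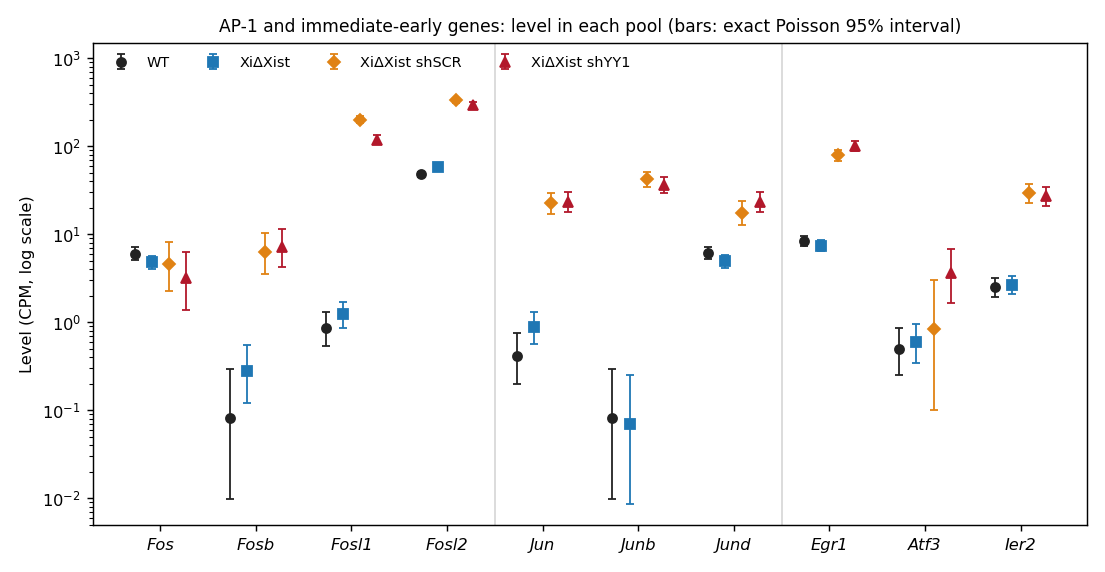
Level of each of the 10 members in the 4 pools, in CPM on a log axis, with exact Poisson 95% intervals as bars and 1 pool per group. In 8 genes the intervals of both hairpin pools lie above those of both untreated pools. Fos lies between 3.19 and 6.05 in all 4, and Atf3 in shSCR, with 2 reads, has an interval that spans the untreated pools. How many of all genes separate in this way was not counted. Of 10444 genes, 41.1% were at least 2-fold higher in shSCR than in untreated XiΔXist. In the deciles of genes by GC content that hold the members, this share was 69.9% to 92.4%.

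Fos (ENSMUSG00000021250; chr12:85473890-85477273), the founding member and the most transient in its induction, had 147 reads in WT and 136 in XiΔXist, but 11 in shSCR and 8 in shYY1. These gave 6.05 CPM (95% interval 5.11 to 7.11), 4.80 (4.03 to 5.68), 4.60 (2.29 to 8.22) and 3.19 (1.38 to 6.29). The order was thus WT, XiΔXist, shSCR and shYY1, and each pool's interval overlapped that of the next.

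Fosb (ENSMUSG00000003545; chr7:19302696-19310051), which also gives the long-lived ΔFosB protein, had 2, 8, 15 and 18 reads in the same order of pools. Its level was 0.0823 CPM in WT and 0.282 in XiΔXist, with overlapping intervals (0.00996 to 0.297 and 0.122 to 0.556). It was 6.27 CPM (3.51 to 10.3) in shSCR and 7.19 (4.26 to 11.4) in shYY1. Neither the untreated pools nor the hairpin pools could be told from each other at this depth.

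Fosl1 (ENSMUSG00000024912; chr19:5447547-5455946) encodes FRA-1, a FOS protein without a transactivation domain that builds up under lasting MAP kinase signalling. It had 21, 35, 477 and 298 reads, or 0.864 CPM (0.535 to 1.32) in WT, 1.24 (0.860 to 1.72) in XiΔXist, 199 (182 to 218) in shSCR and 119 (106 to 133) in shYY1. The hairpin pools stood apart from the untreated pools and from each other, with shSCR the higher.

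Fosl2 (ENSMUSG00000029135; chr5:32135801-32157842) encodes FRA-2, the other FOS protein of this kind, and had 1163, 1628, 797 and 733 reads. Its level was 47.8 CPM (45.1 to 50.7) in WT, 57.5 (54.7 to 60.3) in XiΔXist, 333 (310 to 357) in shSCR and 293 (272 to 315) in shYY1. WT was the lowest and shSCR the highest, with the hairpin pools close to each other.

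Jun (ENSMUSG00000052684; chr4:95049034-95052222), a gene of 1 exon whose product is the main transactivating partner in AP-1, had 10, 25, 54 and 59 reads. The levels were 0.411 CPM (0.197 to 0.757), 0.883 (0.571 to 1.30), 22.6 (16.9 to 29.4) and 23.6 (17.9 to 30.4). The antisense gene Junos overlaps its exons on the other strand and had 15, 49, 12 and 4 reads. The use of strand in counting is not given in the sources used here, so reads over both genes may have been exchanged or left out.

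Junb (ENSMUSG00000052837; chr8:84974484-84978718), whose product often restrains JUN, had 2 reads in WT and 2 in XiΔXist. It had 101 in shSCR and 92 in shYY1. Its level was 0.0823 CPM (0.00996 to 0.297), 0.0706 (0.00855 to 0.255), 42.2 (34.4 to 51.3) and 36.7 (29.6 to 45.1). Prdx2, a gene of a peroxidase, overlaps its exons on the other strand and had 175, 184, 98 and 102 reads. As for Jun, reads over both genes may have been exchanged or left out.

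Jund (ENSMUSG00000071076; chr8:70698949-70700616), the JUN gene that is kept on in resting cells, had 150, 139, 42 and 59 reads. Its level was 6.17 CPM (5.22 to 7.24) in WT, 4.91 (4.12 to 5.79) in XiΔXist, 17.6 (12.7 to 23.7) in shSCR and 23.6 (17.9 to 30.4) in shYY1. Both hairpin pools were above both untreated pools, and within each pair the intervals overlapped.

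Egr1 (ENSMUSG00000038418; chr18:34859823-34864984), a zinc finger factor induced by serum through the same promoter elements as Fos, had 205, 211, 188 and 254 reads. This gave 8.43 CPM (7.32 to 9.67), 7.45 (6.48 to 8.52), 78.5 (67.7 to 90.6) and 101 (89.3 to 115). Unlike Fosl1, it was highest in the shYY1 pool.

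Atf3 (ENSMUSG00000026628; chr1:191170296-191218039), a stress-induced bZIP factor, was near the limit of the data throughout, with 12, 17, 2 and 9 reads. Its level was 0.494 CPM (0.255 to 0.862), 0.600 (0.350 to 0.961), 0.836 (0.101 to 3.02) and 3.59 (1.64 to 6.82). Only the shYY1 interval lay above those of both untreated pools.

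Ier2 (ENSMUSG00000053560; chr8:84661331-84662852), a short single-exon gene that is induced early by serum, had 61, 75, 70 and 68 reads. The level was 2.51 CPM (1.92 to 3.22), 2.65 (2.08 to 3.32), 29.3 (22.8 to 36.9) and 27.2 (21.1 to 34.4). The 2 untreated pools overlapped, and so did the hairpin pools.

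The class was compared first in XiΔXist against WT, where the deletion and a difference between lines cannot be told apart. Of the 10 members, 6 had at least 50 reads in the 2 pools together, and 0 of these differed at least 2-fold, where 12.8% of all 10763 genes with as many reads did (4.20% higher, 8.57% lower). Fosl1, Fosl2 and Ier2 were higher in XiΔXist and Fos, Jund and Egr1 lower. The median log2 ratio of the 6 was -0.05, and that of all genes -0.13.

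Fosl2 was the member whose ratio was outside counting error, with a log2 ratio of 0.26 (exact conditional 95% interval 0.16 to 0.37). Its 129 reads gave 29.2 CPM in WT and 27.9 in XiΔXist, while its CAST reads gave 18.7 and 29.6. The higher total in XiΔXist was thus in CAST reads.
The interval of each of the other 5 members held 0. For Fos the log2 ratio was -0.33 (-0.68 to 0.01), for Jund -0.33 (-0.67 to 0.01), for Egr1 -0.18 (-0.46 to 0.11), for Ier2 0.08 (-0.43 to 0.59) and for Fosl1 0.52 (-0.30 to 1.37). A difference of 2-fold lay outside the intervals of Fos, Jund, Egr1 and Ier2 and inside that of Fosl1. The 4 members with fewer reads were Fosb, Jun, Junb and Atf3. Jun had 10 reads in WT and 25 in XiΔXist, a log2 ratio of 1.10 with an interval of -0.01 to 2.32, and the depth did not separate these pools.

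YY1 knockdown was compared next, in shYY1 against shSCR. Here 7 members had at least 50 reads together and 0 differed at least 2-fold, where 3.25% of 8245 genes did (1.41% higher, 1.84% lower). The median log2 ratio of the 7 was -0.11 and that of all genes -0.08. Fosl1, Fosl2, Junb and Ier2 were lower in shYY1 and Jun, Jund and Egr1 higher.
Fosl1 differed most among the members with 50 reads, with a log2 ratio of -0.74 (-0.96 to -0.53), or 0.597 times the shSCR level. Fosl2, its closest relative in the class, was lower by less, with a log2 ratio of -0.19 (-0.33 to -0.04). Egr1 was higher, with 0.37 (0.09 to 0.65). Of Egr1, the 129 reads gave 43.9 CPM in shSCR and 45.5 in shYY1, and the CAST reads 34.7 and 55.9.
These 3 were the ratios outside counting error. The JUN genes were at 0.06 (-0.49 to 0.62) for Jun, -0.20 (-0.62 to 0.22) for Junb and 0.42 (-0.17 to 1.03) for Jund, and Ier2 was at -0.11 (-0.61 to 0.40). Atf3 had 2 reads in shSCR and 9 in shYY1, a ratio of 4.30 with an interval of 0.890 to 40.9. Fos had 11 and 8 reads and Fosb 15 and 18, and neither pair could be told apart.

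**Figure D2:**
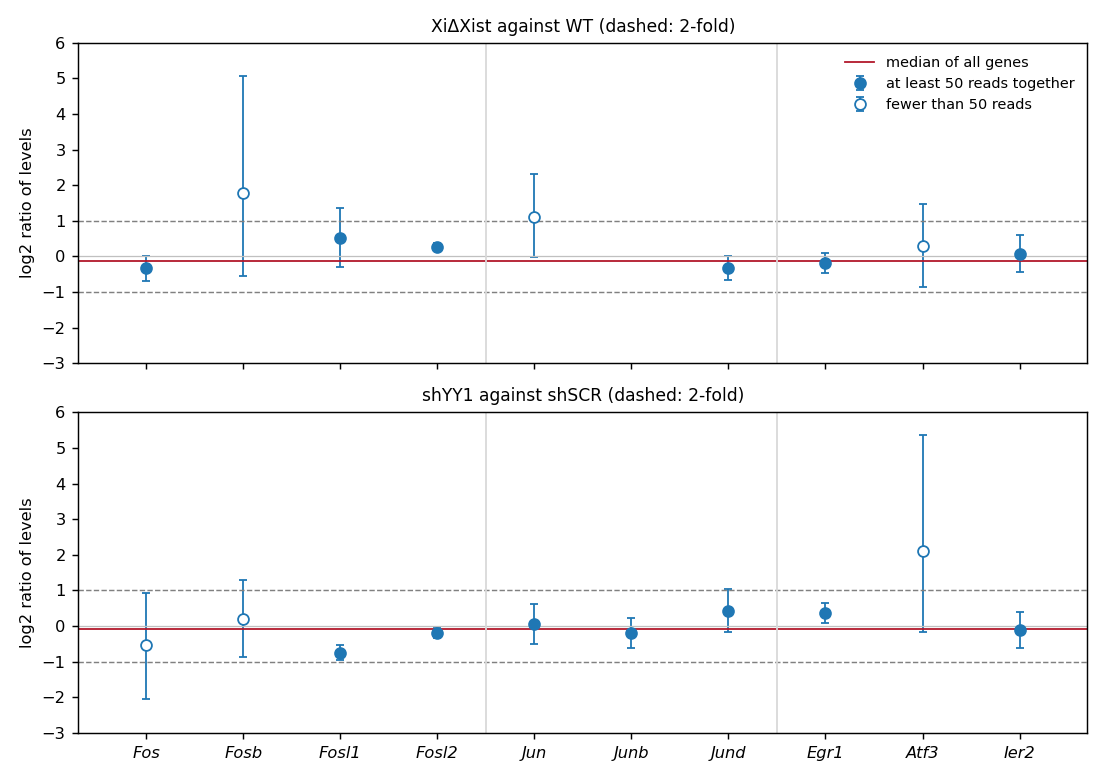
Log2 ratio of each member in XiΔXist against WT (upper panel) and in shYY1 against shSCR (lower panel), with exact conditional 95% intervals for counting error. Filled points have at least 50 reads in the 2 pools together, open points fewer, dashed lines mark 2-fold and the red line the median of all genes; no filled point passes a dashed line, Fosl1 comes nearest at -0.74, and Junb, with 2 reads in each untreated pool, has no ratio in the upper panel.

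To ask what transduction and selection went along with, the shSCR pool was set against the untreated XiΔXist pool, which carries the same deletion. Allelic balance differed between them in places. Near Fos on chromosome 12, the typical (median) gene within 10 Mb drew 50.9% of its reads from 129 without transduction, against 26.1% with shSCR. Whether such shifts enter the members' ratios was not tested. Of 8 members with at least 50 reads together, 7 were at least 2-fold higher in shSCR and 0 at least 2-fold lower. Of 10444 genes, 66.9% differed as much, 41.1% of them higher and 25.8% lower as shares of all genes. Fosl1, Jun and Junb had fewer than 50 reads in the untreated pool and passed the read minimum through the shSCR pool, so they had to differ. Of the other 5, Fosl2, Jund, Egr1 and Ier2 were at least 2-fold higher and Fos was not. With TMM factors, which shift the median of all genes by -1.15 on the log2 scale, 6 members were higher and 1, Fos, lower, beside 26.0% and 45.9% of all genes.

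The ratio to untreated cells was 161 (114 to 234) for Fosl1, 25.6 (15.6 to 42.9) for Jun, 11.1 (7.86 to 15.5) for Ier2, 10.5 (8.62 to 12.9) for Egr1, 5.79 (5.32 to 6.31) for Fosl2 and 3.58 (2.47 to 5.08) for Jund. For Junb, with 2 reads in the untreated pool, it was 598 with an interval from 161 to 5003. Fos had a ratio of 0.957 (0.467 to 1.77). Among the 5 members not bound to differ by the read minimum, Fosl2, Jund, Egr1 and Ier2 were higher in shSCR, while the interval of Fos held 1 and lay below 2.

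GC content moved with this comparison across the transcriptome, and it is high in these genes. The longest transcripts of the members were 51.9% GC in Fos, 52.2% in Atf3, 53.1% in Fosl2, 55.5% in Jun, 56.0% in Fosb, 57.3% in Egr1, 58.5% in Fosl1, 60.9% in Ier2, 62.6% in Junb and 67.2% in Jund. From the lowest to the highest decile of genes by GC content, the median log2 ratio of shSCR over untreated XiΔXist went from -1.46 to 4.61. In the other comparisons these medians went from -0.11 to -0.17 (XiΔXist against WT) and from -0.02 to -0.20 (shYY1 against shSCR). According to the study's supplement, the untreated and the hairpin libraries also differed in the length of their read pairs. The part of GC content and read length in the members' ratios was not tested.

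The members were therefore also described against genes of like GC content, within 2 percentage points, an alternative chosen after the data were seen. Less the median of its 732 GC neighbours, the log2 ratio of 7.33 for Fosl1 became 2.73. It became 3.21 for Junb (132 neighbours), 1.39 for Jun (1334), 0.30 for Fosl2 (1747) and -0.77 for Egr1 (999). For Fos it became -1.93 (1943 neighbours), for Ier2 -2.10 (284) and for Jund -4.10, from 9 neighbours. By this measure 3 members were at least 2-fold higher and 3 at least 2-fold lower, with a median of -0.24. The 3 higher ones were Fosl1, Jun and Junb, which had passed the read minimum through the shSCR pool, so their count is no support for a rise. In the remaining members the direction for Ier2, Egr1 and Jund depended on whether GC content was set aside.

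**Figure D3:**
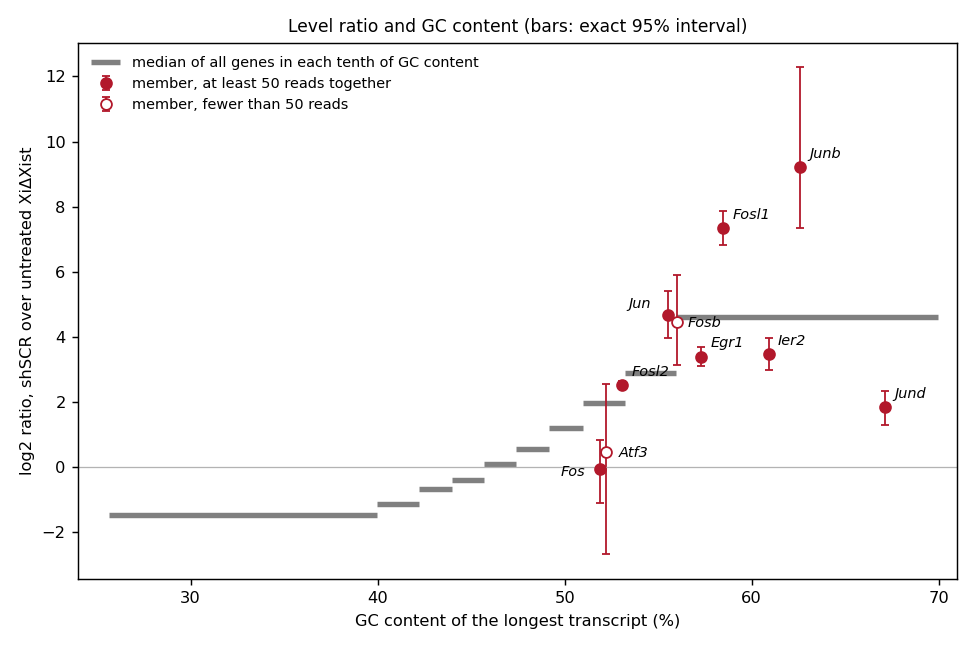
Log2 ratio of shSCR over untreated XiΔXist for each member against the GC content of its longest transcript in percent, with exact conditional 95% intervals. Gray bars span each decile of all genes by GC content at its median log2 ratio, from -1.46 to 4.61; Junb, Fosl1, Jun and Fosl2 lie above the bar at their GC content, and Fos, Egr1, Ier2 and Jund lie below it.

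The allelic origin of the reads was examined next, as the share of 129 reads. A change was called at an adjusted p under 0.05 (two-sided Fisher's exact test, Benjamini-Hochberg over all genes with 10 or more reads in each of the pools) with at least 3 percentage points. Beside each share stands the median share of all genes within 10 Mb that had at least 20 reads.

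Fosl1 and Atf3 were read from 129 almost alone. Fosl1 had 20 of 21 reads from 129 in WT, and all 35, 477 and 298 in XiΔXist, shSCR and shYY1 (Wilson 95% interval in shSCR 99.2% to 100%). Atf3 had all of its 12, 17, 2 and 9 reads from 129. The median share of the genes within 10 Mb was 100% in every pool at both, so these windows as a whole were read from 129. Fosb lay in a mixed window with a median of 99.6% to 100%, and had 2, 5, 14 and 15 reads from 129 beside 0, 3, 1 and 3 from CAST.

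Fosl2 had 709 129 reads and 454 CAST reads in WT, 789 and 839 in XiΔXist, then 404 and 393 in shSCR and 399 and 334 in shYY1. The 129 share was 61.0% (58.1 to 63.7) in WT, 48.5% (46.0 to 50.9) in XiΔXist, 50.7% (47.2 to 54.2) in shSCR and 54.4% (50.8 to 58.0) in shYY1. In XiΔXist against WT it was lower by 12.5 points (adjusted p = 1.2e-09, Fisher's exact test), the 1 called change among 8 members with enough reads (12.5%), where 18.3% of 11909 genes were called (6.77% higher, 11.6% lower). The median share of the genes around it was 66.3% in WT and 53.3% in XiΔXist, so that Fosl2 and its neighbours on chromosome 5 moved alike.

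Jun had 6 reads from 129 and 4 from CAST in WT, 7 and 18 in XiΔXist, 34 and 20 in shSCR, and 40 and 19 in shYY1. Its 129 share was 60.0% (31.3 to 83.2), 28.0% (14.3 to 47.6), 63.0% (49.6 to 74.6) and 67.8% (55.1 to 78.3). In shSCR against untreated XiΔXist it was higher by 35.0 points (adjusted p = 0.035, Fisher's exact test), the 1 called change among 7 members, where 20.8% of 9548 genes were called (10.9% higher, 9.92% lower). The surrounding medians were 50.2% and 52.5%. This call rests on 25 reads in XiΔXist, and the antisense gene Junos had 49 reads there.

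In shYY1 against shSCR, 0 of 8 members were called, where 1.19% of 10070 genes were (0.636% higher, 0.556% lower). Unadjusted p-values under 0.05 were seen for Egr1, whose share was 55.9% in shSCR and 44.9% in shYY1 (p = 0.027, adjusted p = 0.37, Fisher's exact test), and for Junb, at 37.6% and 52.2% (p = 0.044, adjusted p = 0.47, Fisher's exact test). Jund was at 49.3%, 49.6%, 42.9% and 33.9% over the 4 pools, and Ier2 at 39.3%, 56.0%, 47.1% and 51.5%, with no change called.
Fos was at 52.4% in WT and 57.4% in XiΔXist. It had 6 reads from 129 and 5 from CAST in shSCR, and 0 and 8 in shYY1. In its window on chromosome 12 the median of all genes was 46.8% and 50.9% in the untreated pools and 26.1% and 27.4% in the hairpin pools, a shift that Fos had too few reads to follow.

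**Figure D4:**
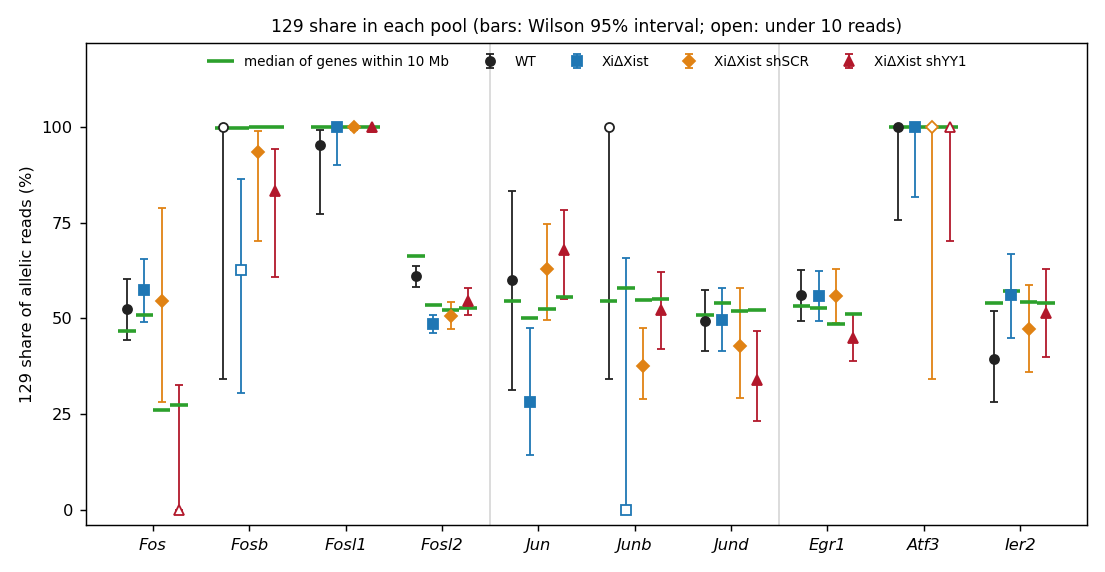
Percent of allelic reads from 129 for each member in the 4 pools, with Wilson 95% intervals. Open symbols have fewer than 10 reads, and green lines give the median over all genes within 10 Mb; Fosl1 and Atf3 sit at or near 100% with their neighbours, and Fosl2 falls from 61.0% to 48.5% between WT and XiΔXist as its green line does.

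Genes around the class in the pathway were described with lists drawn from general knowledge, by genes with at least 50 reads together. The lists were chosen with earlier results of these data known, so their counts are a description and no independent support. In XiΔXist against WT, 12 of 19 genes known as AP-1 targets were at least 2-fold higher and 3 at least 2-fold lower, with a median log2 ratio of 1.16. Of all genes 4.20% were higher and 8.57% lower by as much, with a median of -0.13. Mmp3, the stromelysin gene, had 6 reads in WT and 1105 in XiΔXist (0.247 and 39.0 CPM), and Areg, which encodes the growth factor amphiregulin, had 21 and 588 (0.864 and 20.8 CPM). These 2, with Mmp10 and Mmp13, reached the read minimum through the XiΔXist pool alone, so that 4 of the 12 had to be higher. For Areg the minimum by itself did not require a 2-fold difference. The 3 lower genes, named after their values were seen, were Fst, Ccnd1 and Ccl2. None of the 6 FOS, JUN and other members above the read minimum differed 2-fold in the same pools. Jun, with 10 and 25 reads, Fosb, with 2 and 8, Junb and Atf3 were below it and could not be judged. AP-1 protein was not measured. The fibroblast markers moved too, with 2 of 14 at least 2-fold higher, 5 lower and a summed level of 5909 CPM in WT and 4019 in XiΔXist, and the 20 markers of other cell types summed to 97.9 and 33.4 CPM, with Kdr at 55 and 0 reads, Tubb3 at 87 and 20, Map2 at 2186 and 838 and, higher, Cdh5 at 12 and 47. Kdr, Tubb3 and Cdh5 had each reached the read minimum only through the pool where they were higher, so they had to differ. The part of the marker lists in the differences of the target genes was not tested.

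Upstream of the class in the same comparison, 0 of 19 genes of the MAP kinase cascade differed 2-fold. The same held for 0 of 8 genes of serum response factor and its ternary complex partners. Over all genes 12.8% differed as much, 4.20% higher and 8.57% lower. The widest apart in the cascade were Mapk8, the gene of the kinase JNK1 that phosphorylates JUN (47.5 CPM in WT and 75.4 in XiΔXist), and Braf (130 and 83.4). In the other list they were Mrtfa (1.44 and 0.918) and Ets2 (3.83 and 5.12). Of 13 feedback inhibitors of the cascade, 3 were at least 2-fold higher and 0 lower. Spry4 had 2.88 CPM in WT and 13.3 in XiΔXist, Dusp6, the ERK phosphatase, had 116 and 301, and Dusp10, named after its values were seen, had 15.6 and 35.7.
Of 19 other immediate-early genes, 2 were higher and 2 lower. Ptgs2, which encodes cyclooxygenase-2, was at 666 and 2059 CPM, and Ccn2, a target of YAP and serum response factor, at 58.1 and 19.4. Egr2 was the other higher gene and Plk2 the other lower one, both named after their values were seen. Of 10 other bZIP partners 2 were higher, Crem and Mafg.
For stress, 0 of 11 heat shock genes differed 2-fold, with Bag3 (38.8 and 27.1 CPM) and Dnajb1 (7.28 and 5.15 CPM) the widest apart. In the integrated stress response, 1 of 13 was higher (Cth, 48.1 and 128 CPM) and 1 lower (Vldlr, 17.2 and 2.93 CPM).

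In shYY1 against shSCR few genes of these lists differed 2-fold, and few of all genes did. Of 8245 genes 3.25% differed as much, 1.41% higher and 1.84% lower. Among the other immediate-early genes, 1 of 22 was lower: Sgk1, with 28.0 CPM in shSCR and 14.0 in shYY1. Myc, with 55.6 and 29.6 CPM, was the next of that list. Mapkapk2, the kinase below p38, was the 1 of 19 cascade genes that was lower, at 79.8 and 32.3 CPM, and Dusp9 the 1 of 14 feedback inhibitors, at 18.4 and 5.99 CPM. Slc7a11, the cystine transporter of the integrated stress response, was the 1 of 11 that was higher, with 10 and 41 reads. Dusp9 and Slc7a11 had each passed the read minimum through the pool where they were higher. No AP-1 target gene of 19, heat shock gene of 12, bZIP partner of 10 or serum response factor gene of 8 differed 2-fold. The AP-1 target genes had a median log2 ratio of -0.15, with Hmox1 at -0.92. The other genes widest apart in their lists were Dusp3 (log2 ratio -0.95), Mrtfa (-0.63), the X-linked Elk1 (0.57), Creb1 (-0.32), Mafg (-0.26), Herpud1 (0.44), Hsf1 (-0.82) and Hspd1 (-0.52).

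In shSCR against untreated XiΔXist, the AP-1 target genes were split, with 11 of 23 at least 2-fold higher and 9 lower, and a median log2 ratio of -0.53. With TMM factors these counts were 9 and 12 and the median -1.68. Of the 11 and 9, 4 in each direction had passed the read minimum through the pool where they were higher, Mmp3, Areg, Tgfb1 and Hmga1 among them. Mmp3 and Areg, at 39.0 and 20.8 CPM in untreated XiΔXist, had 0 reads in shSCR, where 3 counts would be 1.25 CPM. Tgfb1 had 2 and 51 reads and Hmga1, an architectural chromatin protein gene, 19 and 314. Among feedback inhibitors 9 of 13 were higher and 3 lower, Dusp6 among the latter with 301 and 21.7 CPM. Of 20 other immediate-early genes 9 were higher and 6 lower, or 6 and 8 with TMM factors. Sgk1 was at 0.565 and 28.0 CPM, and Ppp1r15a, which encodes the stress-induced GADD34, at 0.318 and 36.4, and both had passed the minimum through shSCR. So had Myc of the same list. Heat shock genes were higher in 6 of 12 and lower in 2, cascade genes higher in 8 of 20 and lower in 3, and integrated stress response genes higher in 8 of 13 and lower in 3. Of these, Hsf1, Mapk3, Phgdh, Nupr1 and Herpud1 had passed the minimum through shSCR, and Vldlr, a lower gene, through untreated XiΔXist. Over all genes 41.1% were higher and 25.8% lower, or 26.0% and 45.9% with TMM factors, which gave 4 and 5 heat shock genes, 8 and 6 cascade genes, 5 and 4 integrated stress response genes and 6 and 3 feedback inhibitors. The serum response factor list had 6 of 8 genes higher and 0 lower, or 3 and 2 with TMM factors. Other bZIP partners were higher in 7 of 11 and lower in 1, or 3 and 4 with TMM factors. The genes widest apart in the remaining lists were Mapk3 and Map2k2 of the cascade (log2 ratios 6.47 and 5.09), Spred2 of the feedback inhibitors (3.88), Shmt2 and Cth of the integrated stress response (5.93 and -5.94), Atf5 and Mafk among bZIP partners (6.80 and 2.69), Mrtfa and Ets2 (6.41 and 2.39), and Hsp90ab1 of the heat shock genes (3.78), where Hsf1 had 1 read in untreated XiΔXist and 111 in shSCR. Mapk3, Atf5, Mrtfa and Hsf1 had passed the read minimum through shSCR alone, so they had to be higher there. Fibroblast markers were higher in 8 of 14 and lower in 2, and their part was not tested. Among these markers, Col5a1 had passed the minimum through shSCR and Dcn through untreated XiΔXist.
Less the GC neighbours, the medians of the lists were -0.45 for AP-1 targets, -0.59 for other immediate-early genes, -0.73 for feedback inhibitors, -0.14 for the integrated stress response, 0.52 for heat shock, 0.68 for the cascade, 0.37 for bZIP partners and 0.08 for the serum response factor list.

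The gene whose level followed a member most closely over the 4 pools was found among 4981 genes with at least 50 reads in every pool, by Euclidean distance of the centered log2 levels. With 4 points, this is a description alone. Fosl2 was nearest to Dusp5, an ERK phosphatase gene (distance 0.0862), which was at 3.99, 4.76, 26.7 and 25.6 CPM. Ier2 was nearest to Plod3 (0.0623), Jund to Tbl2 (0.0750), Egr1 to Arid1a (0.106) and Fos to Nek6 (0.0248). Fosl1 was nearest to Plec, at a wider distance of 0.467, Fosb and Jun both to Dlg5 (1.03 and 0.555), Junb to Lrp1 (1.26) and Atf3 to Plat (0.880). For members with few reads in a pool, such as Fos, Fosb, Jun, Junb and Atf3, the counting error of their own levels enters the distance. Among the nearest genes, Plec was 61.3% GC, Lrp1 57.9%, Plod3 57.8%, Dlg5 56.9%, Dusp5 56.7% and Arid1a 56.7%. Tbl2, Nek6 and Plat were at 48.7%, 47.7% and 45.8%. The part of GC content in these distances was not tested.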

How the data were processed

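RNA-seq of 8 MEF samples in 4 groups was analysed. The deposited values were raw counts of reads per Ensembl gene and allele, not normalized. The authors pooled the replicates of a group, aligned reads with TopHat to a mouse genome (GRCm38, also called mm10) with strain differences masked, dropped poorly mapped reads, sorted the others into alleles by SNPsplit and counted those over exons in featureCounts 1.6.3. Strand use and annotation release are not given in the sources used here. MEF libraries were made with the KAPA RNA HyperPrep kit.

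Of 46078 gene IDs, 45143 were matched to GENCODE M21, from which positions and transcripts were taken. The longest transcripts of the 10 members had no match of 90% identity in another gene outside their own locus (blastn 2.17.0). The members and the gene lists were chosen with earlier results of these data known, and earlier choices are no independent support.

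Total reads of both alleles per 1000000 (CPM) were computed with Python 3.11.15, numpy 2.4.6, pandas 2.3.3 and scipy 1.17.1. A gene with 50 reads or more over the 2 pools was given a ratio with an exact conditional 95% interval; a pool at 0 was set to 3 counts. A ratio of at least 2 was described, without a test, since each group was 1 pool. Shares of 129 reads carry Wilson 95% intervals and were compared by two-sided Fisher's exact tests, adjusted by the Benjamini-Hochberg method over all genes with at least 10 reads in each pool. The depth of 2393545 to 28329701 allelic reads per pool sets the precision, and intervals cover counting error only, since PCR copies are not independent molecules. The computations were tested on simulated data.

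The members, the label checks Xist and Yy1, the 2 genes of each list with the largest log2 ratio in either direction among those with 50 reads, and the nearest gene to each member were named. A few genes that this rule selects are not reported here. Alternatives were totals without mitochondrial reads, TMM factors (edgeR 4.0.16), median-of-ratios size factors, other thresholds and minimums, single alleles, a pseudocount of 1 CPM, other windows and GC neighbours. Markers of fibroblasts and other cells were fixed as lists.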

Additional observations from a re-analysis of the deposited data

How the results depend on the processing

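With 1 pool per group no replicate could be left out. No paired analysis was possible because the counts of both replicates of a group were pooled in 1 column. In XiΔXist against WT the count of members at least 2-fold different was 0 and became 2 with no minimum of reads (Fosb and Jun, both higher). In shYY1 against shSCR it was 0 and became 1 at a threshold of 1.5-fold (Fosl1, lower) and 1 with no minimum of reads (Atf3, higher). In shSCR against untreated XiΔXist it was 7 and became 3 at a minimum of 200 reads, since fewer members were then measured. Centered on genes of like GC content, an alternative added after the data were seen, the log2 ratio in that comparison became -0.77 for Egr1, -2.10 for Ier2 and -4.10 for Jund; the cause was not tested. The count of members with a changed 129 share became 0 in XiΔXist against WT when the change of the local median, over neighbouring genes read from both alleles, was subtracted (-13.3 points at Fosl2), and 0 in shSCR against untreated XiΔXist at a minimum of 50 reads in both pools, which leaves out Jun. The other alternatives run left each of these counts within 1.5 times its value. Relative to the totals, TMM and median-of-ratios factors moved the median log2 ratio of all genes by 0.13 and 0.21 in XiΔXist against WT and by -1.15 and -1.11 in shSCR against untreated XiΔXist. Leaving out mitochondrial reads moved the latter by 0.30. Of the values of single members under the alternatives, 135 stayed within the counting interval of the reported value, 32 left it, and the 3 named above turned from at least 2-fold higher to lower. Within the 135 and 32, 9 values of ratios under 2-fold changed sign, Fosl2 in XiΔXist against WT (-0.07) and Junb in shYY1 against shSCR (0.27) with 129 reads alone among them. Depth limits Fosb, Junb, Jun and Atf3 in the untreated pools and Fos in the hairpin pools.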
